A study of Mus musculus with 12 samples.

Results

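The genes described here are the DNA methyltransferase genes of the mouse, Dnmt1, Dnmt3a, Dnmt3b and Dnmt3c, the catalytically inactive family member Dnmt3l, and Uhrf1, which brings DNMT1 to DNA. They were taken by symbol from GENCODE M21 through the Ensembl identifiers of the gene table, and all 6 were found among the 35666 genes listed. All 6 also passed the filter on low values that left 26005 genes for testing. RNA was measured in gonocytes, the germ cells of the newborn testis, which were isolated with the Mvh-Venus transgene, a fluorescent reporter named for the germ cell gene Mvh (Ddx4). Gonocytes of Morc1 (-/-) mice at postnatal day 0 (P0), called KO here, were compared with those of Morc1 (+/-) mice at P0, called het here, with 3 libraries in each group. All animals therefore carried at least 1 mutated Morc1 allele, no wild-type group entered the comparison, and samples taken at postnatal day 3 were not analysed here. The mutation itself, the strain and the number of animals per library are not given in the sources used here. The series addresses how loss of Morc1, whose product is an ATPase made in germ cells, affects gonocyte chromatin and transcripts.

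DNA methylation of mammals is laid down at CpG dinucleotides by the de novo enzymes DNMT3A, DNMT3B and, in rodents, DNMT3C, and is copied to the new strand after replication by DNMT1, which UHRF1 recruits to hemimethylated sites. DNMT3L has no catalytic activity of its own and stimulates DNMT3A and DNMT3B through direct binding. Male germ cells lose most of their methylation in the fetus and regain it as gonocytes, before and around birth, while they are arrested in the cell cycle. In this lineage DNMT3A and DNMT3L methylate imprints and most of the genome, and DNMT3C methylates the promoters of evolutionarily young retrotransposons.

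The start regions of 4 of the genes are shown because Dnmt1 and Uhrf1 varied together over the libraries and because Dnmt3a and Dnmt3l were compared as a ratio. RefSeq (GRCm38.p6) gave 12 annotated starts for 5 of the 6 genes, and Dnmt3c had no entry. For each gene the start shown is the one with the most CpG among the starts whose 250 upstream bases hold no annotated exon of the gene. The sequences run 5′ to 3′ on the gene's strand and end at the base before the start, and capitals mark each CpG.
Dnmt1 (chr9:20952980-20953229, minus strand): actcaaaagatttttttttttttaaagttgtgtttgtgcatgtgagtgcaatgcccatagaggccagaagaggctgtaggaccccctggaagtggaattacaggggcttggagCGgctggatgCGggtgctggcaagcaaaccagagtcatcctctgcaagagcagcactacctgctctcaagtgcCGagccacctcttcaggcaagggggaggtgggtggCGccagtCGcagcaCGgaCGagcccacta
Uhrf1 (chr17:56304063-56304312, plus strand): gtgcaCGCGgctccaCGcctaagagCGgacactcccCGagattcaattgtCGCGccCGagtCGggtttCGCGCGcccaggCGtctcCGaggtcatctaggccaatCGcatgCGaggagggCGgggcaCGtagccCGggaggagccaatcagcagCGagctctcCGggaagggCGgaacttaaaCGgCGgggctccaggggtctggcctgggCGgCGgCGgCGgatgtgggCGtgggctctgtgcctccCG
Dnmt3a (chr12:3806730-3806979, plus strand): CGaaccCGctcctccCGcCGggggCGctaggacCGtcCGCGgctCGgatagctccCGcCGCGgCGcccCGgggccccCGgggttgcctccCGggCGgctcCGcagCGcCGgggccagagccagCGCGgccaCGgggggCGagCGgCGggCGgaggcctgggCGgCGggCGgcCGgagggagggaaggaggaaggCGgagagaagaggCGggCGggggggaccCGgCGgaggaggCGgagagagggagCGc
Dnmt3l (chr10:78049592-78049841, plus strand): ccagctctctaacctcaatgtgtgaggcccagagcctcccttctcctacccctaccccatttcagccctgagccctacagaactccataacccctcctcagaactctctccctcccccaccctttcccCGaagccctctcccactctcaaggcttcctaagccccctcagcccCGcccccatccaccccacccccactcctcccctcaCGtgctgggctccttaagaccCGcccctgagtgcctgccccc
The Dnmt3a sequence held 38 CpG, more than 98.1% of the 32851 RefSeq promoters did, and the Uhrf1 sequence held 30 (percentile 94.1). The Dnmt1 sequence held 7 (percentile 53.7) and the Dnmt3l sequence held 4 (percentile 37.8), beside a median of 6 over all promoters. A further start of Dnmt1, at position 20952623, had 26 CpG in its upstream bases. It is not shown because 166 of these bases lie in annotated exons of the gene. Further starts of Dnmt3a had 40 CpG (at 3807160) and 15 CpG (at 3891744, percentile 72.7). They are not shown for the same reason, with 91 and 16 such bases. Which start is used in these cells was not tested. Motifs were searched on both strands in windows of 300 bases, from 250 before to 50 after each start. The E2F motif TTTCCCGC matched 0 of the 12 windows and 1.07% of all promoters, and the E2F motif TTTGGCGC matched 1 of the 12, that of the Dnmt1 start at 20952623, and 0.514% of all. The GC box GGGCGG matched 9 of the 12 windows and 35.7% of all promoters, and CCAAT matched 4 of the 12 and 37.4% of all. All windows with CCAAT were at starts of Dnmt1 or Uhrf1. The 12 windows come from 5 genes and are not independent, and those of the Dnmt3a start shown and of the start at 3807160 overlap. These are matches of letters and do not show binding.

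Throughout, values of a group are listed in the order of its replicates 1, 2 and 3. The gene table held 28363683 to 32816861 reads per library. Morc1, the targeted gene, had a KO mean that was 23.8% of the het mean, with a log2 fold change of -2.03 (SE 0.27, limma adjusted p 0.0109), and the fall lost its call when KO replicate 1, KO replicate 3 or het replicate 1 was left out. Germ cell markers (10 of 10 detected in all libraries) summed to between 83722 and 117235 normalized counts in het and between 98356 and 123690 in KO. Sertoli markers summed to between 17536 and 37259 in het and between 12581 and 18099 in KO, with estimates below 0 for 7 of 7 genes and 0 called. Leydig markers summed to 24921 in het replicate 3 and to between 510 and 1079 in the other 5 libraries. Stromal markers and markers of endothelium, blood and macrophages summed to between 1755 and 4894 in all 6 libraries, and no marker of any of these lists was at 0 in any library. The groups did not overlap for Sox9, Amh and Clu of the Sertoli list, lower in KO, nor for Lin28a (germ cell) and Acta2 (stromal), higher in KO, nor for Csf1r (macrophage), lower in KO. None of these markers was called, and over all genes tested 12.7% had no overlap, 5.57% with KO lower and 7.17% with KO higher. With the highest Sertoli and Leydig sums, het replicate 3 stands apart in RNA of these cell types. Its stromal sum (3469) was the lowest of the 6 libraries. In bulk RNA, fewer cells of a type and less RNA per cell cannot be told apart.

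Between the genotypes, no difference in the 6 genes was larger than the spread between libraries allows to call. With limma, 0 of 6 passed an adjusted p under 0.05 and 0 of 6 had an unadjusted p under 0.05. Over all 26005 genes tested, 0.473% passed (0.431% higher and 0.0423% lower in KO) and 6.86% had an unadjusted p under 0.05. On recovered reads, edgeR and DESeq2 likewise called 0 of the 6, beside 0.496% and 1.79% of all genes. The estimate was above 0 for Dnmt3a and below 0 for the other 5 genes, with a median log2 fold change of -0.27 for the 6 and -0.016 for all genes tested. The genes also differed in how much they varied within a genotype. The SD of log2 values within groups of Dnmt3a was among the smallest of all genes tested (percentile 0.884), while that of Uhrf1 was at percentile 88.4.

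**Figure D1:**
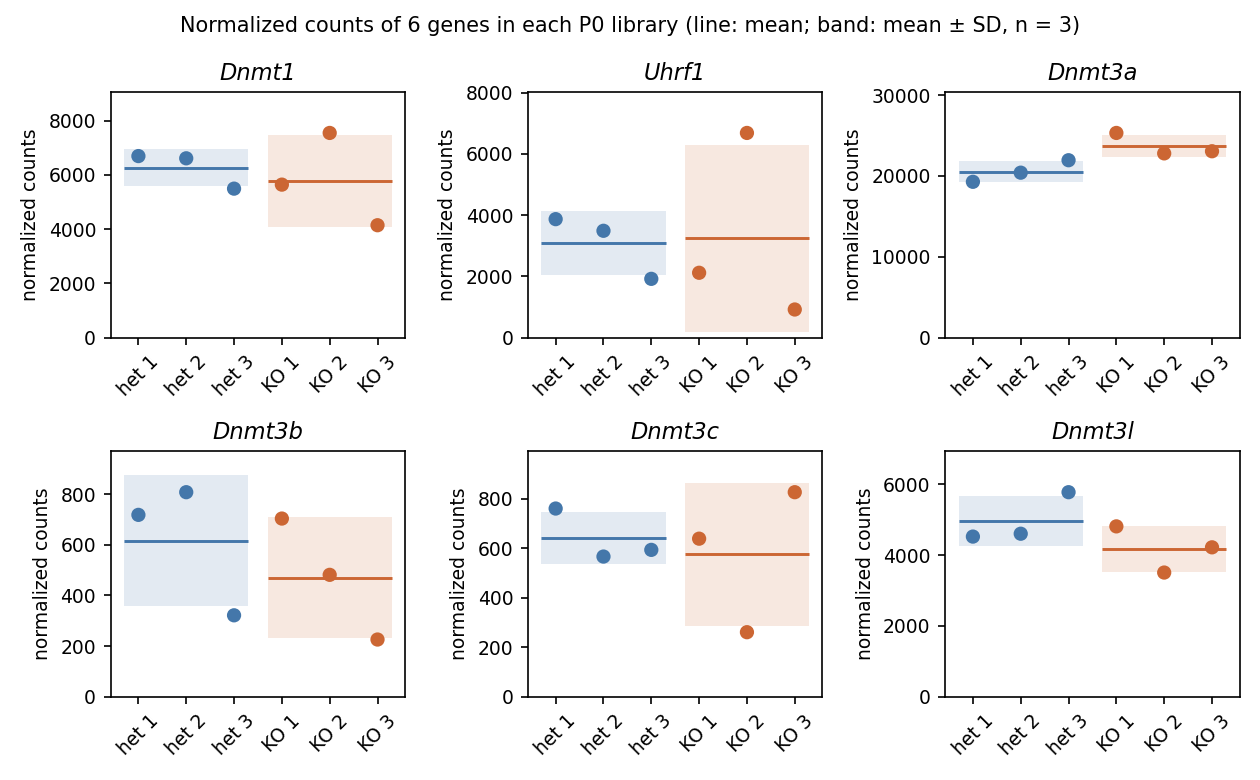
Normalized counts (vertical axis, from 0, a scale of its own in each panel) of each gene in the 3 het (blue) and 3 KO (orange) libraries, with the group mean as a line and the mean ± SD as a band. Dnmt3a is the panel in which the KO points lie above the het points without overlap, and Uhrf1 spans 919 to 6681 in KO.

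The maintenance genes Dnmt1 and Uhrf1 overlapped between the groups, and both were highest in KO replicate 2 and lowest in KO replicate 3. Dnmt1 (ENSMUSG00000004099, minus strand of chromosome 9 from 20907209 to 20959888, GRCm38) copies methylation at replication. It had 6697, 6614 and 5496 normalized counts in the het libraries, and 5644, 7550 and 4147 in KO. The groups overlapped, and KO replicates 2 and 3 lay above and below all het values. The means were 6269 ± 671 in het and 5780 ± 1706 in KO (SD, n = 3), and the log2 fold change was -0.15 (SE 0.24, 95% interval -0.69 to 0.39, limma adjusted p 0.948). The Dnmt1 estimate was -0.37 without KO replicate 2 and turned to 0.064 without KO replicate 3. Uhrf1 (ENSMUSG00000001228, plus strand of chromosome 17 from 56303321 to 56323486) encodes the reader of hemimethylated CpG that recruits DNMT1. It had 3868, 3488 and 1919 normalized counts in het, and 2117, 6681 and 919 in KO. KO replicate 2 was thus 7.27 times KO replicate 3, and the highest and the lowest of the 6 values were both KO. The means were 3092 ± 1033 and 3239 ± 3040 (SD, n = 3), and the log2 fold change was -0.33 (SE 0.59, 95% interval -1.64 to 0.98, limma adjusted p 0.954). The KO mean was thus 105% of the het mean while the estimate on the log2 scale was below 0. The sign of the Uhrf1 estimate turned in both count tests, to 0.07 in edgeR and 0.07 in DESeq2. Without KO replicate 2 it was -1.08 and without KO replicate 3 it was 0.35, so single libraries set it, and neither estimate was called.

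The order of the 6 libraries was the same for Dnmt1 and Uhrf1: KO replicate 2, het replicates 1 and 2, KO replicate 1, het replicate 3 and KO replicate 3, from high to low. Of the 15 pairs that the 6 genes form, this was the only 1 with the same order, and it was noticed after the values were seen. The range was wider for Uhrf1. Its level per kb of exon relative to that of Dnmt1 was 1.00, 0.913 and 0.605 in the het libraries, and 0.650, 1.53 and 0.384 in KO. Both extremes of this ratio were KO libraries, and the groups overlapped (log2 difference -0.18, exact two-sided permutation p = 0.9, where 0.1 is the smallest p that 3 against 3 can give). The difference ran from -0.72 without KO replicate 2 to 0.28 without KO replicate 3. Genes of S phase and mitosis were set beside this order because maintenance acts at replication. Their sum over 13 genes was 54583, 59336 and 40169 in the het libraries, and 47376, 59093 and 40948 in KO. The sum was low in het replicate 3 and KO replicate 3, as were Dnmt1 and Uhrf1, and nearly equal in het replicate 2 and KO replicate 2. Gene by gene, 8 of the 13 were highest in KO replicate 2, 3 in het replicate 2 and 1 each in het replicates 1 and 3, while 6 were lowest in het replicate 3 and 3 in KO replicate 3. Only 3 of the 13 (Mcm5, Mcm7 and Ccna2) had both extremes in the libraries where Dnmt1 and Uhrf1 had theirs, and the other genes of the list did not. Ccna2, the cyclin of S phase and G2, had 1645 and 566 normalized counts in KO replicates 2 and 3. The part of the cell cycle in the order of the libraries was not tested.

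**Figure D2:**
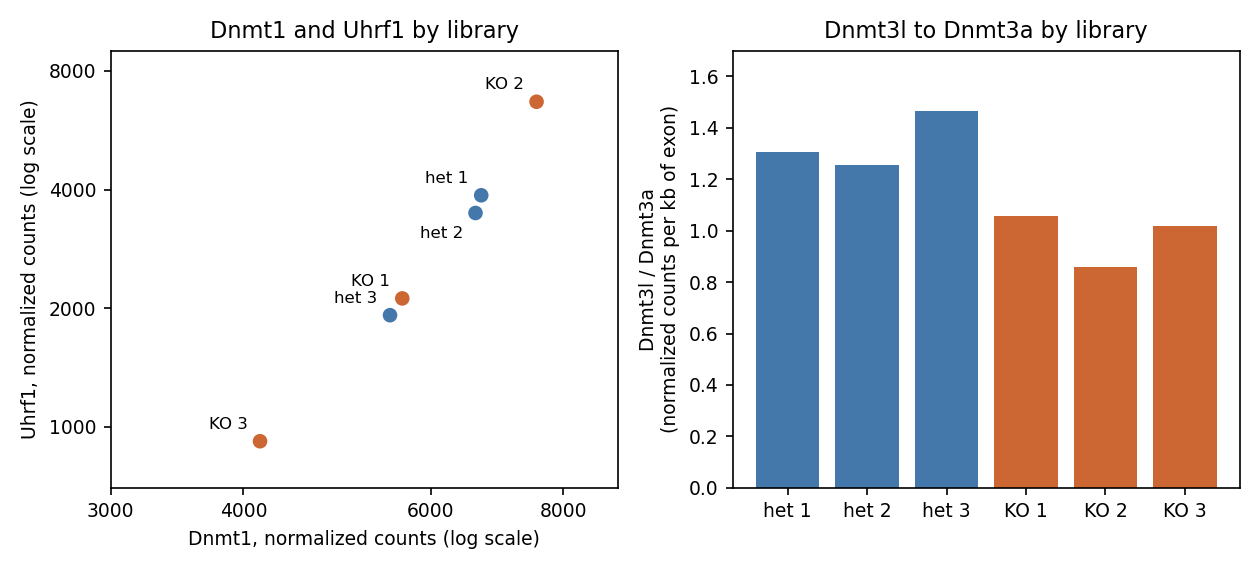
Left, normalized counts of Uhrf1 against those of Dnmt1 in each library, both on log axes, with het in blue and KO in orange. Right, the ratio of Dnmt3l to Dnmt3a in each library, in normalized counts per kb of exon, on an axis from 0: all 3 het bars (1.257 to 1.47) are above all 3 KO bars (0.857 to 1.06).

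Dnmt3a was the gene with the steadiest values, and its level did not overlap between the genotypes. Dnmt3a (ENSMUSG00000020661, plus strand of chromosome 12 from 3806007 to 3914443) encodes the main de novo enzyme of male germ cells. It had 19268, 20397 and 21936 normalized counts in the het libraries, and 25309, 22782 and 23046 in KO. All 3 KO values exceeded all 3 het values, as did those of 7.17% of all genes tested (12.7% had no overlap in either direction). The means were 20534 ± 1340 and 23713 ± 1389 (SD, n = 3), so that KO was at 115% of het. The log2 fold change was 0.21 (SE 0.17, 95% interval -0.18 to 0.59, limma adjusted p 0.894), which as a fold runs from 0.885 to 1.51. The estimate stayed between 0.14, with quantile normalization, and 0.26, without het replicate 3, and it was not called under any alternative run.

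Dnmt3b and Dnmt3c, which lie side by side on chromosome 2, had the lowest levels of the 6 genes and overlapped between the groups. Dnmt3b (ENSMUSG00000027478, plus strand from 153649450 to 153687730) encodes the second de novo enzyme. It had 718, 807 and 322 normalized counts in het and 704, 481 and 226 in KO. Replicate 3 was the lowest in each group, and the means were 616 ± 258 and 470 ± 239 (SD, n = 3). The log2 fold change was -0.43 (SE 0.46, 95% interval -1.45 to 0.59, limma adjusted p 0.923), and it was 0.03 without KO replicate 3. Dnmt3c (ENSMUSG00000082079, plus strand from 153696652 to 153729907) is a rodent-specific copy of Dnmt3b that is needed for male fertility. It had 761, 567 and 594 normalized counts in het and 639, 261 and 827 in KO. The highest and the lowest of its values were both KO, with KO replicate 2 far below the others. The means were 641 ± 105 and 576 ± 288 (SD, n = 3), the log2 fold change was -0.30 (SE 0.39, 95% interval -1.17 to 0.58, limma adjusted p 0.939), and it was 0.19 without KO replicate 2. The longest Dnmt3c transcript aligned to that of Dnmt3b over 93.7% of its length at 89.2% identity, and 22.6% of its windows of 50 bases occur unchanged in Dnmt3b. How reads divide between them is therefore uncertain, and the size of this uncertainty was not measured. Per kb of exon, Dnmt3c stood above Dnmt3b in all 6 libraries, by 2.43, 1.61 and 4.24 times in het and by 2.09, 1.25 and 8.39 times in KO. The ratio did not separate the groups (log2 difference 0.13, exact two-sided permutation p = 0.9, chosen after the values were seen), and its sign turned with the library left out (-0.66 to 0.71).

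Dnmt3l, the cofactor of the de novo enzymes, was among the most abundant of the genes and overlapped between the genotypes. Dnmt3l (ENSMUSG00000000730, plus strand of chromosome 10 from 78041947 to 78063622) had 4521, 4601 and 5773 normalized counts in the het libraries, and 4809, 3507 and 4218 in KO. KO replicate 1 lay within the het values, and KO replicates 2 and 3 lay below all of them. The means were 4965 ± 701 and 4178 ± 652 (SD, n = 3), with KO at 84.1% of het. The log2 fold change was -0.25 (SE 0.21, 95% interval -0.72 to 0.21, limma adjusted p 0.895). It was -0.14 without het replicate 3, which had the highest Dnmt3l value and the highest Leydig sum (24921). It was -0.13 without KO replicate 2, which had the lowest Dnmt3l value. The Leydig sum of KO replicate 2 (1075) was the highest of KO but about that of het replicate 2 (1079). The part of the somatic RNA in the estimate was not tested. Aire, on the opposite strand, shares 67 exon bases with Dnmt3l and had between 132 and 284 normalized counts.

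**Figure D3:**
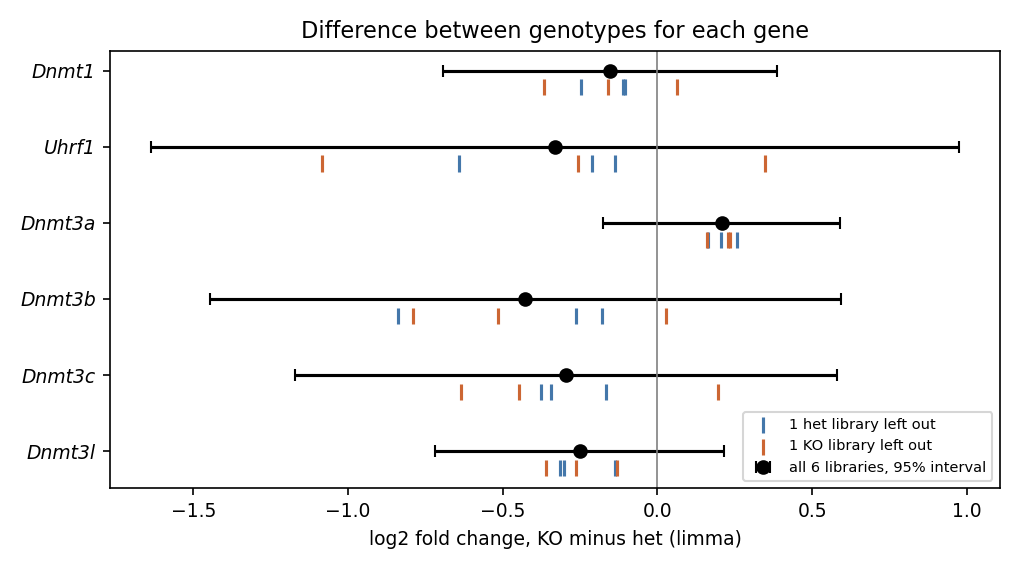
Log2 fold change between KO and het (horizontal axis) of each gene, as the limma estimate from all 6 libraries with its 95% interval (black), and as the estimate with 1 het (blue) or 1 KO (orange) library left out (ticks). Every interval includes 0, and the ticks of Dnmt3a and Dnmt3l alone stay on 1 side of 0.

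The ratio of the cofactor to its main enzyme had no overlap between the groups, in a design of 3 against 3 libraries in which the exact test cannot reach 0.05. Dnmt3l relative to Dnmt3a, per kb of exon, was 1.31, 1.257 and 1.47 in the het libraries, and 1.06, 0.857 and 1.02 in KO. The KO ratio was lower in each library, at 0.727 times the het ratio on average (log2 difference -0.46, exact two-sided permutation p = 0.1, the smallest it can give). The difference was -0.40 without het replicate 3 and ran from -0.52 to -0.37 over the libraries left out. The summed Sertoli markers given above were also mostly lower in KO, and their part in the ratio was not tested. A ratio within a library does not depend on how the library was scaled, and it does not tell which of its genes moved. With the p-value at the smallest it can be and neither gene called, an unequal change of Dnmt3l and Dnmt3a is not shown. Dnmt3a by itself had no overlap between the groups, which favours a ratio without overlap. As a share of the summed level per kb of the 4 Dnmt3 genes, Dnmt3a made up 36.7%, 38.6% and 36.8% in het and 42.8%, 49.7% and 43.1% in KO. Dnmt3l made up 50.1% ± 3.33 in het and 43.9% ± 1.33 in KO (SD, n = 3). Dnmt3b stayed between 1.38% and 4.97% and Dnmt3c between 4.27% and 11.6%, with overlap between the groups. The shares add to a fixed total and are given as a description, without a test.

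On the scale of normalized counts per kb of merged exon, the order of mean levels over the 6 libraries was Dnmt3l (1530), Dnmt3a (1329), Dnmt1 (817), Uhrf1 (743), Dnmt3c (274) and Dnmt3b (106). Among 25967 tested genes with a length these levels stood at percentiles 95.3, 94.5, 90.9, 90.0, 76.5 and 58.4. Dnmt3a stood above Dnmt1 in 6 of 6 libraries by a ratio of means of 1.63, and their libraries did not overlap. Dnmt3l over Dnmt3a (ratio 1.15, 5 of 6 libraries) and Dnmt1 over Uhrf1 (ratio 1.10, 4 of 6 libraries) were neighbours that did not differ beyond their spread. Uhrf1 stood above Dnmt3c by 2.72 in 5 of 6 libraries, KO replicate 3 being the exception with 216 for Uhrf1 and 372 for Dnmt3c. Dnmt3c stood above Dnmt3b by 2.57 in 6 of 6 libraries, although the lowest Dnmt3c value (118) was under the highest Dnmt3b value (158). In KO alone the order of the top means turned, with 1425 for Dnmt3a and 1398 for Dnmt3l, against 1234 and 1662 in het. Per kb of merged exon, only KO replicate 2 had Dnmt3l below Dnmt3a (ratio 0.857). Dnmt3l was still slightly higher in KO replicates 1 and 3 (ratios 1.06 and 1.02). The order of means over all libraries was the same with the length of the longest transcript, with which Dnmt3a stood above Dnmt1 by 2.23. With that length Dnmt3l stood above Dnmt3a in 4 of 6 libraries. KO replicate 3 then also had Dnmt3l (2315) below Dnmt3a (2380).

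Genes that work with these enzymes were described from 6 lists, 43 of whose 44 genes were in the table. With limma 0 of 43 were called, 3 had an unadjusted p under 0.05 (beside 6.86% of all genes), and edgeR and DESeq2 called 0. The estimate was above 0 for 29 genes and below 0 for 14, with a median of 0.097 beside -0.016 for all genes, and 5 of the 43 had no overlap between the groups, beside 12.7% of all genes. Among 9 maintenance partners, 8 estimates were above 0 and 0 had an unadjusted p under 0.05. Those with the smallest p were Hells, the chromatin remodeller of pericentric methylation, with a log2 fold change of 0.27 (limma adjusted p 0.875), and Uhrf2, the paralog of Uhrf1, with 0.33 (limma adjusted p 0.896). Uhrf2 had 1004, 1030 and 1666 normalized counts in het and 1244, 1994 and 1388 in KO, a different order of libraries from that of Uhrf1.

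Among 7 genes of H3K36 methylation, which guides the DNMT3 enzymes, and of H3K4 demethylation, 4 estimates were above 0. Nsd1, the H3K36 methyltransferase needed for methylation in male germ cells, had 4964, 5480 and 5903 normalized counts in het and 6264, 6993 and 7435 in KO. Its groups did not overlap, and its log2 fold change was 0.34 (SE 0.19, limma adjusted p 0.820). Kdm1a, an H3K4 demethylase, had a log2 fold change of 0.32 (limma adjusted p 0.893) with overlap.

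The piRNA pathway directs methylation to transposons in these cells, and 4 of its 7 listed genes had estimates below 0. Spocd1, which links the nuclear piRNA pathway to the methylation machinery, had 12403, 12184 and 12387 normalized counts in het and 9982, 4374 and 6255 in KO. The groups did not overlap, as for the 5.57% of genes in which KO was lower throughout, and het varied little beside KO. Its log2 fold change was -0.93 (SE 0.28, 95% interval -1.54 to -0.31), with an unadjusted p of 0.0073 and a limma adjusted p of 0.347, so that it was not called. Piwil4, the nuclear PIWI protein, had 4533, 3966 and 2998 in het and 3642, 1939 and 2944 in KO (log2 fold change -0.46, limma adjusted p 0.837).

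Among 8 methyl-CpG readers, 7 estimates were above 0 and 0 were called. Mbd4, a thymine glycosylase that binds methylated CpG, had a log2 fold change of 0.37 (limma adjusted p 0.848), and Mbd4 and Mbd1 had no overlap between the groups. Of the 3 genes that protect imprints, Zfp445 had a log2 fold change of 0.61 (unadjusted p 0.0384, limma adjusted p 0.686) and Zfp57 had 0.46 (limma adjusted p 0.885). Of the 9 genes of the methyl donor cycle, Ahcyl1, a relative of the enzyme that clears S-adenosylhomocysteine, had 0.58 (unadjusted p 0.0290, limma adjusted p 0.637). The 13 genes of S phase and mitosis had a median of -0.057, and Tyms (0.31, limma adjusted p 0.891) and Ccna2 (-0.40, limma adjusted p 0.898) had the smallest p.

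**Figure D4:**
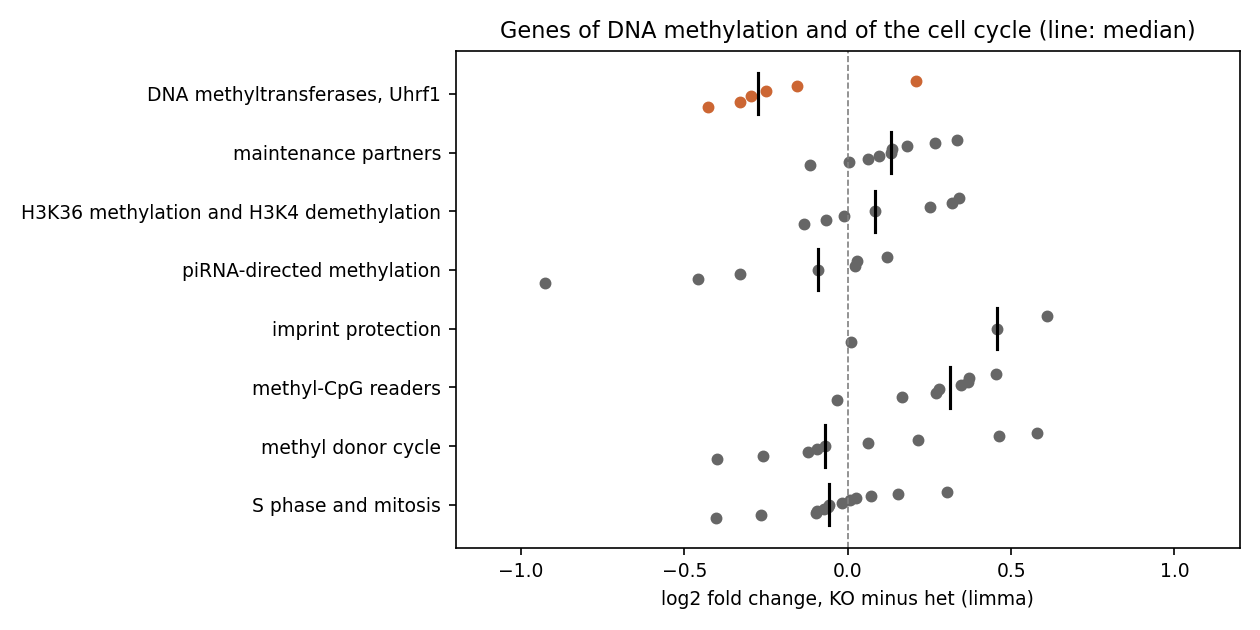
Log2 fold change between KO and het (horizontal axis) of each gene of the lists, with the 6 genes of the report in orange, the listed partners in grey and the median of each list as a black line. No point is a called gene, and Spocd1, at -0.93, lies farthest from 0.

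The loci of the 6 genes were also read from the table of transposable element (TE) copies, normalized by its own size factors. It listed 23 copies within the genes: 13 in Dnmt3a, 8 in Dnmt3c, 1 each in Uhrf1 and Dnmt3l, and 0 in Dnmt1 and Dnmt3b. Only 5 of the 23 passed the filter on low values, and limma called 0 of these 5, beside 16.3% of the 49781 copies tested over the genome. Within 10 kb outside the genes 20 further copies were listed, of which 1 was tested and 0 were called. A copy of 188 bp in an intron of Uhrf1, on the strand opposite to the gene (minus strand of chromosome 17 from 56321331 to 56321518), had 21.1, 22.4 and 28.8 normalized counts in het and 29.6, 34.8 and 65.0 in KO. Its groups did not overlap, as for 30.3% of all copies (22.8% with KO above), and its log2 fold change was 0.74 (SE 0.49, limma adjusted p 0.409). Over single libraries left out, this log2 fold change ran from 0.41, without KO replicate 3, to 0.97, without KO replicate 1. With the size factors of the genes in place of those of the TE copies it was 1.07 (limma adjusted p 0.220). The order of the libraries in this copy was not that of Uhrf1: its highest value was in KO replicate 3, where Uhrf1 was lowest. The other 4 tested copies had log2 fold changes between -0.56 and 0.16 with overlap between the groups. With the gene size factors these 4 lay between -0.24 and 0.48. All 5 estimates were higher on that scale, and 0 were called. How reads that match several copies were assigned is not given in the sources used here.

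For each gene the 2 genes with the most similar pattern over the 6 libraries were taken from 15526 genes with a mean of at least 100, by the root mean square difference of centred log2 values. The measure is a description over 6 libraries that share their depth and scaling. A shared order of libraries or shared extremes are favoured by this choice and are no separate result. Dnmt1 was closest to Orc1, a subunit of the origin recognition complex (0.036), and Stim1, a calcium sensor (0.038), where its own spread around its mean was 0.28. Orc1 had 691, 655 and 580 normalized counts in het and 570, 740 and 423 in KO, with its highest and lowest values in the same libraries as Dnmt1. Uhrf1 was closest to Bcl6b (0.14) and Etv4 (0.14), both transcription factor genes, with its own spread of 0.90. Bcl6b had 1478, 1375 and 685 normalized counts in het and 927, 3023 and 428 in KO, the order of libraries seen for Uhrf1. Dnmt3a was closest to Ube2d2a (0.045) and G3bp1 (0.047), with its own spread of 0.13. Ube2d2a, a ubiquitin-conjugating enzyme, had 2680, 2874 and 2977 normalized counts in het and 3534, 3419 and 3186 in KO. The groups of Ube2d2a did not overlap, which its choice for likeness to Dnmt3a favours, and those of G3bp1 did. Dnmt3l was closest to Pgrmc1 (0.043) and Rnf32 (0.057), Dnmt3b to Pfkfb4 (0.057) and Snx8 (0.12), and Dnmt3c to Ahsg (0.10) and Trim17 (0.11). Pfkfb4, an enzyme of glycolytic control, had 1064, 1268 and 515 normalized counts in het and 1074, 715 and 374 in KO, with its highest value in het replicate 2 and its lowest in KO replicate 3, as for Dnmt3b.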

How the data were processed

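RNA-seq libraries of P0 gonocytes (3 Morc1 het, 3 Morc1 KO) were analysed from the deposited tables. Libraries came from an ultra-low-input cDNA step followed by an mRNA library kit, per the labels' protocols. The submitters' processing notes name bcl2fastq 2.20, cutadapt 1.18, HISAT2 2.1.0, featureCounts 1.5.2, DESeq2 1.26.0 and the builds mm10 and GRCm38. Strand setting, annotation and the treatment of reads matching several places are not given in the sources used here. The deposited values are a signal, not raw counts: going by the title of the gene table, the authors scaled the read counts of each library with DESeq2. The TE table names no stage in its columns, and P0 was taken from the table's name. All values (100%) of each deposited column were whole multiples of 1 step within 0.01, and the recovered reads, with 1974504 to 3703419 per library for TE copies, were used for count tests as alternatives. In KO replicate 1 the step of the gene table is close to 1, so an automatic check of this could not be applied.

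Genes were named through GENCODE M21, in which 35560 of 35666 identifiers matched. Tests covered genes whose mean was 10 or more and used log2(normalized count + 1) in limma 3.58.1 (R 4.3.3; two-sided, eBayes with a mean-variance trend), adjusted by Benjamini-Hochberg over all of them. Fold changes are on that scale, which understates low genes. TE copies were tested likewise. edgeR 4.0.16 and DESeq2 1.42.0 were run on recovered reads. The limma fit was tested on simulated gene counts. Levels between genes were compared per kb of merged exon, ratios by exact permutation tests, and transcripts with BLAST 2.17.0. Named genes were the 6 genes, Morc1, the 2 genes of each list with the smallest p and the 2 most similar genes of each member, and Mbd1, Mcm5, Mcm7, Aire and the markers named singly were named outside it, after their values were seen. Some genes that this rule names are not reported here. The members and lists were chosen with earlier results of these data known. The labels do not say whether replicates came from separate animals, so p-values measure the spread between these samples, which may be technical. Pclaf and Rrm2, each on a list, were not analysed here.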

Additional observations from a re-analysis of the deposited data

How the results depend on the processing

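Of 90 estimates for the 6 genes under alternatives, 84 kept their direction and 0 of 90 were called, the lowest limma, edgeR or DESeq2 adjusted p being 0.486. The other 6 turned sign. Without KO replicate 3 they were Dnmt1 (0.064), Uhrf1 (0.35) and Dnmt3b (0.026), without KO replicate 2 it was Dnmt3c (0.19), and on recovered reads it was Uhrf1 (0.068 in edgeR and 0.069 in DESeq2). Over single libraries left out, estimates ran from -0.37 to 0.06 for Dnmt1, -1.08 to 0.35 for Uhrf1, 0.16 to 0.26 for Dnmt3a, -0.84 to 0.03 for Dnmt3b, -0.63 to 0.19 for Dnmt3c and -0.36 to -0.13 for Dnmt3l. The 43 partner genes had 0 calls under each alternative.

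Of 45 estimates for TE copies within the genes, 39 kept their direction and 0 were called (lowest adjusted p 0.220). Those that turned were the Dnmt3a copy at 3900443 (-0.030 without KO replicate 2, range -0.030 to 0.49), the Dnmt3a copy at 3914365 (0.035 with the gene size factors, range -0.62 to 0.14), the Dnmt3c copy at 153697665 (0.17 without KO replicate 2, range -0.999 to 0.17) and the Dnmt3l copy at 78061893 (0.026 without KO replicate 2, range -0.64 to 0.026). The copy at 3914365 was 0.14 without het replicate 3 and 0.019 without KO replicate 1.

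The Morc1 fall was not called by limma without trend (log2 fold change -2.03, adjusted p 0.0890), and over libraries left out it ran from -2.31 to -1.88. The limma adjusted p was 0.0511, 0.101 and 0.0663 without het replicate 1, KO replicate 1 and KO replicate 3. A pseudocount of 0.1 turned the 112 higher and 11 lower genes into 70 and 5, and DESeq2 turned them into 400 and 65. There were 177 higher genes at a pseudocount of 10, and 3 lower genes in limma without trend. Without single libraries the counts ran from 15 to 107 higher and from 1 to 7 lower. Dnmt3a over Dnmt1 moved from 1.63 to 2.23 with the longest transcript. The cause of these changes was not tested.

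The replicate numbers of het and KO libraries are not known to pair the samples. Deviations from the group means correlated at 0.138, -0.163 and -0.0438 for the numbers 1 to 3. Between unequal numbers they ran from -0.2 to 0.206. With 3 libraries a group, such correlations cannot decide whether libraries of the same number were handled together. With the replicate number as a block, 64 genes were higher and 5 lower, and no call among the 6 genes, Morc1, the partner genes or the TE copies changed. Not every library correlated best with its own number. With 3 libraries a group, the 95% intervals of Uhrf1 (-1.64 to 0.98), Dnmt3b (-1.45 to 0.59) and Dnmt3c (-1.17 to 0.58) each include a fall of more than 1 on the log2 scale.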
